A study of Mus musculus with 3 samples.

Results

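The 48 genes described here encode the machinery of DNA replication and of S phase, and were read here in LT-HSCs, the mouse long-term hematopoietic stem cells that sustain blood formation. They were chosen by name, and each was read from the probe with the highest mean processed signal over the 3 arrays. They were 48 of 37072 genes on the array and were covered by 98 probes. LT-HSCs were sorted from the femur and tibia of C57BL/6J mice with the labelled phenotype CD150+CD48-Flt3-CD34- LSK (lineage-, Sca-1+, c-Kit+), and their RNA was labelled with Cy3 and hybridised to Agilent 1-colour arrays. The 3 groups were WT, AtmsKO, in which the DNA damage kinase gene Atm was deleted from floxed alleles, and Atmp38dKO, in which floxed Atm and floxed p38α (Mapk14, a stress-activated MAP kinase) were targeted together. In the mutants Cre came from CAG-CreERT2, a tamoxifen-inducible recombinase under a promoter active in most tissues, so deletion was not restricted to blood cells. According to the study's methods the controls carried floxed alleles without Cre and also received tamoxifen, so their alleles were not those of unmodified mice. The labels give an age of 11 weeks for all 3 samples, whereas the series text gives tamoxifen at about 5 weeks of age and analysis 4 weeks later. The number of mice behind each array was not stated.

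Each genotype was measured once, so differences between arrays carry no replicate error and none was tested. Values are processed signals in intensity units, and differences are on the log2 scale after division of each array by the 75th percentile of its own probes (102, 96.2 and 118 for WT, AtmsKO and Atmp38dKO). Spots of 1 probe repeated within an array had a median SD of 0.05 on the log2 scale, which covers spot-to-spot error only. In RNA from sorted cells, fewer cells in S phase and less RNA per cell cannot be told apart. The signal of Atm was lower than WT at both probes on the AtmsKO array (-1.79 and -2.37), but on the array labelled Atmp38dKO it was clearly lower at 1 probe (-0.22 and -1.07) and Mapk14 was not lower at either (0.18 and 0.01), so that array is named by its label throughout. Whether these probes lie in the deleted exons was not examined, so a kept signal does not say whether the alleles were recombined. All 12 LT-HSC markers were well above background on every array. Their median difference from WT was 0.05 for AtmsKO and -0.37 for Atmp38dKO. On the array labelled Atmp38dKO 10 of 12 were lower than on WT, while 52.2% of all genes were higher. Of 6 progenitor genes, 5 were detected on every array and Il7r on none. Only Cd48, Flt3 and Cd34 among them are excluded by the labelled phenotype. The summed signals were 22.6, 22.3 and 24.2 times the 75th percentile in the order WT, AtmsKO, Atmp38dKO, and Cd34 made up most of each sum. On the array labelled Atmp38dKO the dim Cd48 was more than 1.5-fold higher than on WT, and its other probe had the same sign. Flt3 and Cd34 stayed within 1.5-fold there. The part of these markers in the results was not tested.

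Replication begins at origins, which the origin recognition complex (ORC) binds and where Cdc6 and Cdt1 load the ring-shaped MCM helicase in G1. In S phase Cdc45 and the GINS complex join MCM to form the active helicase, polymerase α with primase lays down primers, and polymerases δ and ε extend them around the sliding clamp PCNA. Many of these genes are known targets of E2F transcription factors, which act as cells leave G1. Most LT-HSCs are quiescent in the adult marrow.

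E2F sites are therefore shown first, for 4 members that license origins. Promoters, taken as 250 bases before to 50 bases after the RefSeq start in GRCm38.p6, were found for 41 of the 48 genes, as 50 promoters. The table held none for Gins1, Gins2, Gins4, Mcm4, Pole, Prim2 and Rfc2. Each was searched on both strands for the words TTTCCCGC, TTTGGCGC, TTTGCCGC and TTTCGCGC, which may overlap. At least 1 word stood in 16 of 50 member promoters (32%), against 2.26% of 32851 promoters of all genes. The word CCAAT, on either strand, stood in 56% of member promoters and 37.4% of all promoters. The 150 bases upstream of the start are given for Cdc6 and Orc1, which load the helicase, and for the helicase subunits Mcm5 and Mcm6, because each holds an E2F word in that stretch. E2F words are in capitals, and each sequence is written 5′ to 3′ on the strand of its gene.
Cdc6 (chr11:98908001-98908150, plus strand): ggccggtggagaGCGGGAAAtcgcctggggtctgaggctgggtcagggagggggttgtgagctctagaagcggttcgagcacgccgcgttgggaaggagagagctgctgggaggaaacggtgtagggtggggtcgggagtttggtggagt
Orc1 (chr4:108579304-108579453, plus strand): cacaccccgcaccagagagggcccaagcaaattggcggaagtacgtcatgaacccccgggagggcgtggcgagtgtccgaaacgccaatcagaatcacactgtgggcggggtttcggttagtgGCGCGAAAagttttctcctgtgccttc
Mcm5 (chr8:75109359-75109508, plus strand): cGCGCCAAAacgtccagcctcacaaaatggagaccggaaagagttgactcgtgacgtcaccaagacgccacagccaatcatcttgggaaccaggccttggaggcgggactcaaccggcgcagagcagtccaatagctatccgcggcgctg
Mcm6 (chr1:128359706-128359855, minus strand): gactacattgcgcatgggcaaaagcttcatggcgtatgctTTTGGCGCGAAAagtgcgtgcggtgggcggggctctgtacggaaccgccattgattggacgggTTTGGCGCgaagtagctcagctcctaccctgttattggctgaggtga
Mcm6 held 2 separate stretches, of which the upstream one is formed by overlapping words of opposite strands. The 16 genes with a word had median differences of 0.07 for AtmsKO against WT and 0.11 for Atmp38dKO against WT, and the 25 without had 0.18 and 0.11. The presence of a word does not say that a factor bound there, and its absence covers this window only.

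All 48 replication genes were well above background on all 3 arrays, against 68.5% of all genes. As a group they stood close to their WT level on both mutant arrays. On the AtmsKO array 31 of 48 (64.6%) were higher than in WT, where 51.0% of all genes were, and their median difference was 0.12 against 0.01 for all genes. On the array labelled Atmp38dKO 30 of 48 (62.5%) were higher than on the WT array, against 52.2% of all genes, with a median of 0.10 against 0.02. Between the mutant arrays 27 of 48 (56.2%) were higher on the array labelled Atmp38dKO, against 49.5% of all genes. The median was 0.04, and the mean had the other sign, -0.04, where Orc4 alone had -3.11. Both comparisons with WT share 1 array. No count here tells a biological difference from array noise.

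Against WT, differences past 1.5-fold at the main probe were close to or below the share over all genes. For AtmsKO against WT 4 members were at least 1.5-fold higher and 5 at least 1.5-fold lower (8.33% and 10.4%), against 10.1% and 10.2% of all genes. For Atmp38dKO against WT the counts were 3 and 5 (6.25% and 10.4%), against 11.0% and 10.6%. For Atmp38dKO against AtmsKO they were 1 and 1 (2.08% each), against 10.1% and 8.82%. Past 2-fold stood 1 higher and 1 lower member for AtmsKO against WT (all genes 3.94% and 4.09%), 0 and 2 for Atmp38dKO against WT (4.02% and 4.49%), and 0 and 1 for Atmp38dKO against AtmsKO (3.75% and 3.72%). Between the mutant arrays members past 1.5-fold were thus fewer than over all genes. Since ratios of dim probes rest on few intensity units, the 41 members with a mean signal of at least 100 were also set against the genes above the same level. Of these 41 members 2 were at least 1.5-fold higher and 3 at least 1.5-fold lower for AtmsKO against WT (4.88% and 7.32%), where 4.38% and 3.48% of genes were. The counts for Atmp38dKO against WT were the same, 2 and 3, where 4.35% and 4.37% of genes were. For Atmp38dKO against AtmsKO they were 1 and 1, where 3.73% and 4.13% were. This limit uses the mean over all arrays and is not independent of the differences. Orc4 and Pole2 reached it only through the array where each was high (AtmsKO for Orc4, Atmp38dKO for Pole2), and they make up 1 of the 2 higher genes in each comparison with WT, while Orc4 is also 1 of the 3 lower for Atmp38dKO. With counts this small the shares among the brighter genes are given as a description. With normexp background correction, which adds an offset of 50 and so pulls the ratios of dim probes towards 0, the higher calls went from 4 to 1 for AtmsKO against WT and from 3 to 0 for Atmp38dKO against WT, and the lower calls from 5 to 3 in both. Over the 3 arrays 36 of 48 members (75%) stayed within 1.5-fold at the main probe, against 69.8% of all genes well above background, and the median range from the lowest to the highest array was 0.39 in both sets. Of these 36 members 23 had more than 1 probe, and 11 of the 23 had another probe past 1.5-fold in at least 1 comparison. The remaining 12 members are described one by one under their roles.

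**Figure D1:**
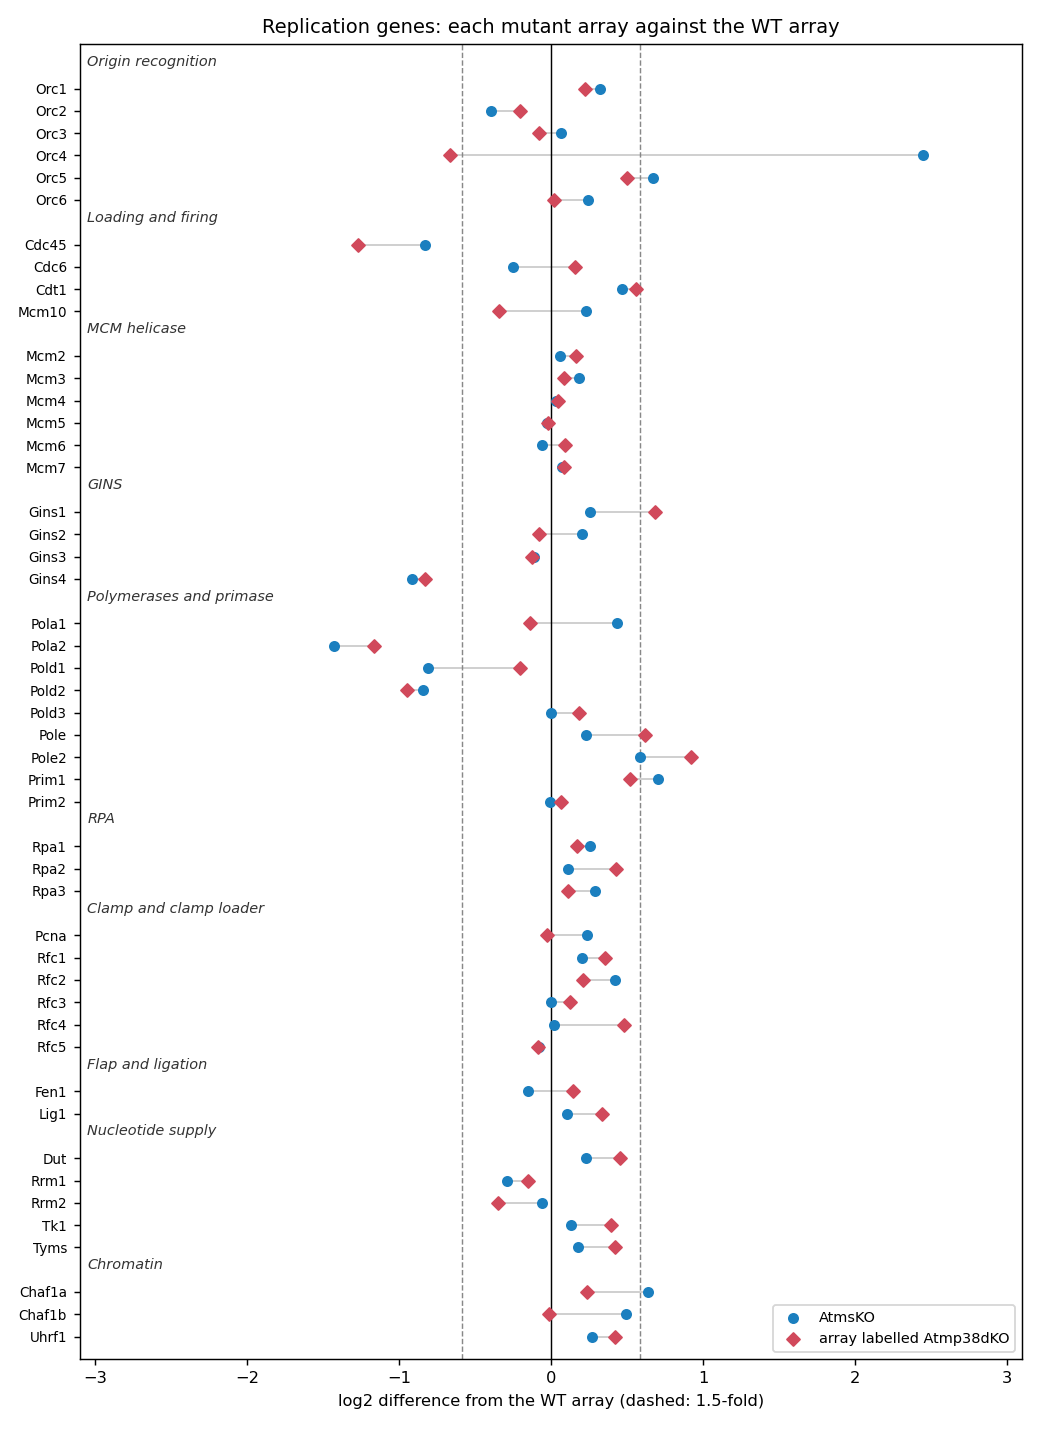
Difference of each of the 48 replication genes from the WT array (x axis, log2 scale after scaling, main probe), grouped by role. Circles are the AtmsKO array and diamonds the array labelled Atmp38dKO, 1 array each, and dashed lines mark 1.5-fold. Most genes lie between the dashed lines, all 6 MCM genes lie near 0, and Orc4 lies farthest out at 2.45 on the AtmsKO array, a value that its other probes did not share.

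**Figure D2:**
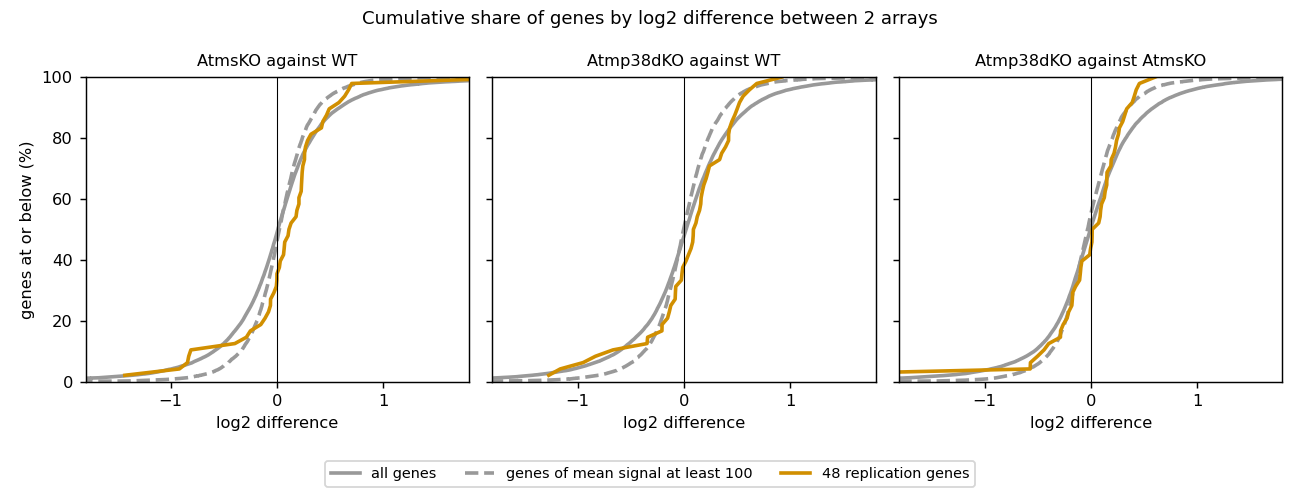
Cumulative share of genes (y axis, percent) at or below each log2 difference (x axis) in the 3 comparisons between arrays, for the 48 replication genes, for all genes measured and for genes with a mean signal of at least 100. The member curve crosses 50% at 0.12, 0.10 and 0.04, to the right of the curve for all genes at 0.01, 0.02 and -0.005; values beyond the plotted range are not drawn.

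Subunits of ORC, which marks origins, differed among themselves and between their own probes. For AtmsKO against WT 5 of the 6 genes (Orc1 to Orc6) were higher, with a median of 0.28, and 2 were at least 1.5-fold higher. Of all genes 51.0% were higher and 10.1% at least 1.5-fold higher. For Atmp38dKO against WT 3 were higher and 3 lower at the main probe, where 52.2% of all genes were higher. The median of -0.03 changed sign under other scalings. Orc1 counted as higher (0.22) from a probe on an Ensembl transcript. Its other probes, on the RefSeq mRNA and similarly dim, were at -0.29 and -1.01 in that comparison and at -0.72 and -1.30 against AtmsKO. For AtmsKO against WT all 3 Orc1 probes were higher, from 0.29 to 0.42. The main Orc1 probe was the dimmest of them in WT and AtmsKO. Its value on the array labelled Atmp38dKO (42.0 against 31.8 and 18.4) decided the choice. Orc4 read 64.8 in WT, 335 in AtmsKO and 47.3 in Atmp38dKO. The AtmsKO array alone was high, 5.45-fold (2.45) above WT, and the array labelled Atmp38dKO was 0.67 below WT and 3.11 below AtmsKO (normexp 1.70, -0.34 and -2.04). This probe is annotated to an Ensembl transcript of Orc4 and not to a RefSeq mRNA. It had the highest mean of the 5 Orc4 probes only through its AtmsKO value, since the probe across an intron was brighter in WT (120 against 64.8) and in Atmp38dKO (115 against 47.3), so the value that stands out also decided the choice of probe. The probes differ in place along the gene, and the first 30 bases of each of 3 of them, with no capitals, are these (mm9, minus strand).
Orc4 main probe (chr2:48767079-48767138): ataattttctaccatggtatctttactgat
Orc4 probe on a RefSeq mRNA, across an intron (chr2:48793013-48795876): gcacatgcagagtgtctttcacaggtacaa
Orc4 probe on a RefSeq mRNA (chr2:48760959-48761018): tactcaaattatgaatgctctacagaaata
The probe across the intron gave 120, 132 and 115 in WT, AtmsKO and Atmp38dKO, differences of 0.22 and -0.28 from WT. The third sequence shown gave 61.4, 51.0 and 114, differences of -0.19 and 0.67. Over the 4 other probes the differences from WT ran from -0.61 to 0.22 on the AtmsKO array and from -0.28 to 0.67 on the array labelled Atmp38dKO. No other Orc4 probe thus came near the value of the main one, and the direction for Orc4 depended on the probe in both comparisons. Orc5, the other ORC gene past 1.5-fold, gave 28.9, 43.6 and 47.4, so that both mutant arrays were above WT, by 0.67 and 0.50 (normexp 0.30 and 0.18). Its second probe, also on the RefSeq mRNA, gave 35.0, 32.0 and 33.3, with differences of -0.06 and -0.29. In WT this second probe was brighter than the main one (35.0 against 28.9). The choice of the main Orc5 probe thus rested on the mutant arrays where it was high. Orc4 and Orc5, the ORC genes at least 1.5-fold higher for AtmsKO, were therefore read from probes selected through mutant values.

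Of the loading and firing factors, Cdc45 alone passed 1.5-fold. Cdc6 and Cdt1 load MCM, Mcm10 takes part in the start of unwinding, and Cdc45 is a subunit of the active helicase. Cdc45 read 121 in WT, 64.3 in AtmsKO and 58.0 in Atmp38dKO, so that both mutant arrays were low, by -0.83 and -1.27 (normexp -0.47 and -0.76). A second Cdc45 probe gave 77.4, 46.5 and 77.4, with differences of -0.66 and -0.21. Both probes were thus lower on the AtmsKO array, whereas the loss on the array labelled Atmp38dKO was large at 1 probe only. The probes lie far apart on the same mRNA, and both 60-base sequences are given so that the 2 readings can be told apart (mm9, minus strand).
Cdc45 probe 1 (chr16:18807449-18807508): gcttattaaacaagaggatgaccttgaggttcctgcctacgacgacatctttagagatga
Cdc45 probe 2, across an intron (chr16:18793399-18794880): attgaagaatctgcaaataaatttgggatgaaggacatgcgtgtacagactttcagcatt
The other 3 genes of this role stayed within 1.5-fold at their main probes. Single other probes did not, with -0.62 for Cdc6 and 0.97 for a dim Mcm10 probe, both for Atmp38dKO against WT. With Cdc45 included, 2 of the 4 were higher and 2 lower in each comparison with WT. Of all genes 51.0% were higher for AtmsKO and 52.2% for Atmp38dKO.

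The 6 subunits of the MCM helicase, which unwinds DNA ahead of the fork, were close to identical on the 3 arrays. Mcm2 gave 143, 141 and 185 in WT, AtmsKO and Atmp38dKO, differences of 0.06 and 0.16 from WT. Mcm3 gave 2721, 2936 and 3354, differences of 0.19 and 0.09. Mcm4 gave 2662, 2577 and 3182, differences of 0.03 and 0.04. In none of these 3 was the scaled difference above 1.5-fold, and the raw signals of the third array were higher, as was its 75th percentile. Mcm5 gave 496, 461 and 568, differences of -0.03 and -0.02. Mcm6 gave 6160, 5598 and 7603, differences of -0.06 and 0.09. Mcm7 gave 2817, 2807 and 3460, differences of 0.07 and 0.08. The range over the 3 arrays was 0.19 or less for each subunit, and for Mcm5 it was 0.03, the smallest of the 48 genes. The MCM medians were 0.05 for AtmsKO against WT, a sign that turned under other scalings, and 0.08 for Atmp38dKO against WT, which kept its sign. The other probes of Mcm3, Mcm6 and Mcm7 gave differences from WT between -0.21 and 0.26.

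**Figure D3:**
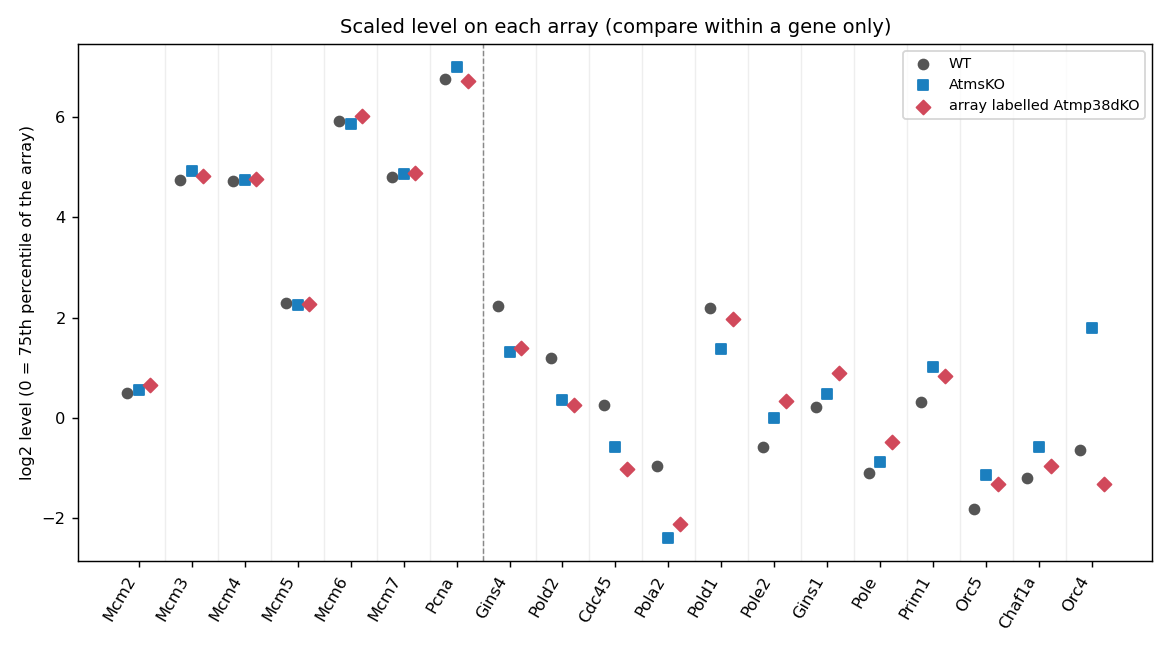
Scaled level (y axis, log2, 0 is the 75th percentile of the array) on the WT (circles), AtmsKO (squares) and Atmp38dKO-labelled (diamonds) arrays, 1 array each. MCM genes and Pcna stand left of the dashed line and the 12 genes past 1.5-fold right of it; the 3 arrays coincide within 0.19 for each MCM gene, while Gins4, Pold2, Cdc45 and Pola2 have the WT array on top, and heights should be compared within a gene only.

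GINS, the 4-subunit partner of MCM and Cdc45, held 1 subunit past 1.5-fold lower on both mutant arrays and 1 past 1.5-fold higher on the array labelled Atmp38dKO. Of all genes 10.2% were at least 1.5-fold lower for AtmsKO and 10.6% for Atmp38dKO. At least 1.5-fold higher for Atmp38dKO were 11.0% of them. Gins4 read 476 in WT, 239 in AtmsKO and 310 in Atmp38dKO, differences of -0.92 and -0.83 that stayed past 1.5-fold with normexp (-0.80 and -0.68). Its second probe gave 255, 170 and 194, differences of -0.51 and -0.61, so that the WT array was highest at both probes. Both are annotated to the same RefSeq mRNA, and their first 30 bases are given because the lower Gins4 signal was shared by both probes in both comparisons with WT and stayed past 1.5-fold at the main probe under each scaling (mm9, minus strand).
Gins4 probe 1 (chr8:24337094-24337153): gcttctatacagcgttaatatgtggcctaa
Gins4 probe 2 (chr8:24337452-24337511): tattagaaacgccatcttttgtgtctaata
Gins1 gave 118, 134 and 220, and the array labelled Atmp38dKO was highest, by 0.68 over WT (normexp 0.52). The second Gins1 probe was dim, at 8.46, 11.3 and 13.1, with a difference of 0.42 in the same comparison. Gins2 and Gins3 stayed within 1.5-fold at their main probes. A second Gins2 probe on the same RefSeq mRNA, about as bright as the main one, gave 314, 182 and 351, and was -0.71 for AtmsKO against WT, opposed to the main probe at 0.21. The GINS median was 0.05 for AtmsKO against WT, with a sign that turned under other scalings, and -0.10 for Atmp38dKO against WT.

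Polymerases and primase held 6 of the 12 genes past 1.5-fold, with polymerase α and primase holding a lower and a higher one. Of 9 genes 1 was at least 1.5-fold higher and 3 at least 1.5-fold lower for AtmsKO against WT, against 10.1% and 10.2% of all genes. The counts were 2 and 2 for Atmp38dKO against WT, against 11.0% and 10.6%. Over the 3 arrays 69.8% of all genes well above background stayed within 1.5-fold. Pola2, the regulatory subunit of polymerase α, read 52.3 in WT, 18.4 in AtmsKO and 27.1 in Atmp38dKO, differences of -1.43 and -1.16. With normexp these dim signals gave -0.44 and -0.48, under 1.5-fold. All 4 Pola2 probes were lower on the AtmsKO array than on the WT array, by 0.14 to 1.43 on the log2 scale. On the array labelled Atmp38dKO the probes disagreed. The probe annotated to a cDNA (BC006945) gave 30.2 on WT and 16.3 there (-1.11), and the 2 probes annotated to another cDNA (AK045325) were higher there, at 47.1 against 12.4 (1.71) and 27.6 against 16.5 (0.52). The main probe is given in full, and the first 30 bases of the others show which stretches gave the opposed readings (mm9, minus strand).
Pola2 main probe (chr19:5946484-5946543): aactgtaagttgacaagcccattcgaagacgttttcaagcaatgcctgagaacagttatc
Pola2 BC006945 probe (chr19:5950346-5950405): tgatagacaaagtcccagactataactcct
Pola2 AK045325 probe, larger difference (chr19:5956741-5956800): cctgagcaagacattgtctttcctgttagt
Pola2 AK045325 probe, smaller difference (chr19:5956681-5956740): aggtcccgtgattgggtttcatccttaatt
These last probes lie directly next to each other in the genome.

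Of the catalytic and accessory subunits of polymerase δ, which copies the lagging strand, Pold1 and Pold2 were lower on the AtmsKO array. Pold1, the catalytic subunit, gave 461, 249 and 464, so that the AtmsKO array alone was low (-0.81, with normexp -0.73). The array labelled Atmp38dKO was 0.60 above the AtmsKO array, and Pold1 was the only member at least 1.5-fold higher in that comparison. Pold2 gave 233, 123 and 140, and both mutant arrays were low, by -0.84 and -0.95 (normexp -0.64 and -0.68). Each of these genes had 1 probe, so no second reading existed.

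Of polymerase ε, the leading-strand enzyme, the subunits Pole and Pole2 were higher on the array labelled Atmp38dKO. The small subunits Pole3 and Pole4, which are not among the 48 genes and are named here after their values were seen, were not, at -0.26 and -0.20 against WT. Pole2, the second subunit, read 67.4 in WT, 95.6 in AtmsKO and 148 in Atmp38dKO, differences of 0.58 and 0.92 (normexp 0.34 and 0.58, both under 1.5-fold). Its other probe, annotated to a cDNA, was dim and was likewise higher for Atmp38dKO than for WT, at 15.9 against 8.01 (0.78). Pole, the catalytic subunit, gave 47.3, 52.4 and 84.1, and its difference of 0.62 (normexp 0.33) was accompanied by 0.70 at a second probe. The main Pole2 probe spans an intron and is shown because Pole2 was the member highest over WT on the array labelled Atmp38dKO (mm9, chr12:70307465-70308864, minus strand).
Pole2 main probe: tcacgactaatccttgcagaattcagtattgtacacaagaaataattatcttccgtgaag
Prim1, the catalytic subunit of primase, gave 126, 195 and 211, above WT on both mutant arrays by 0.70 and 0.52 (normexp 0.49 and 0.33). Pola1, Pold3 and Prim2 stayed within 1.5-fold at their main probes, whereas another, dim Pold3 probe was at -1.28 and -0.89 against WT. Over the 9 genes the median was -0.00 for AtmsKO against WT, with a sign that turned under other scalings, and 0.07 for Atmp38dKO against WT.

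**Figure D4:**
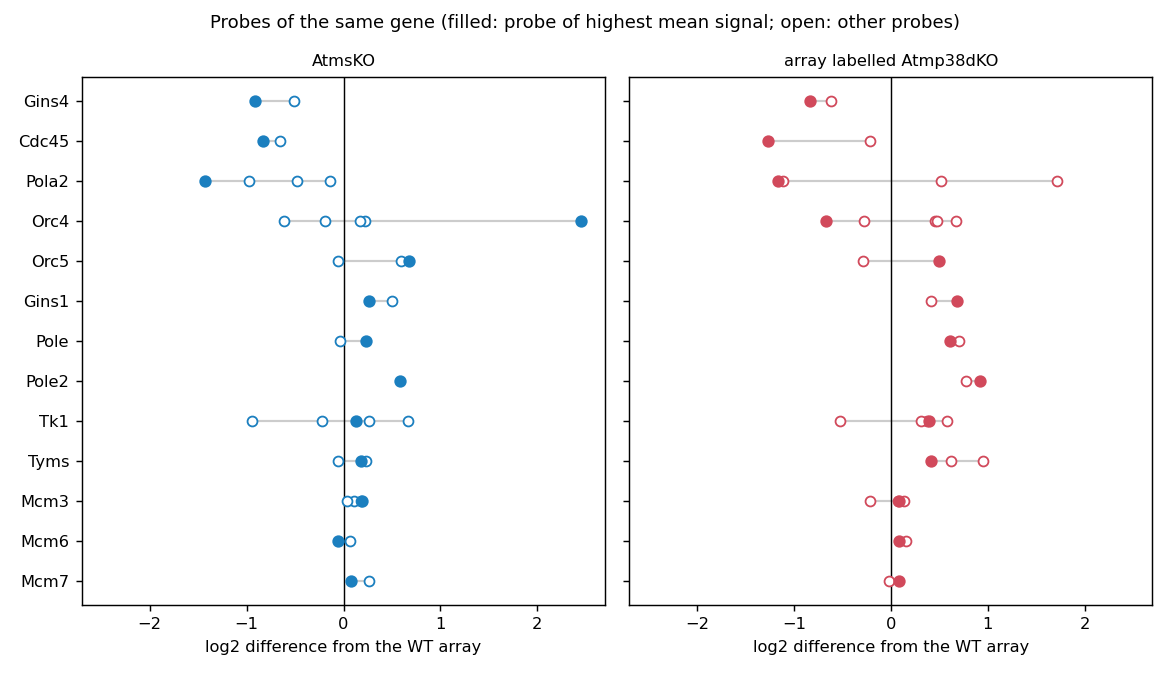
Difference from the WT array (x axis, log2) at each measured probe of 13 genes with more than 1 probe, for the AtmsKO array (left) and the array labelled Atmp38dKO (right). Filled points are the probe of highest mean signal and open points the remaining probes detected on the WT and the mutant array; Gins4, Cdc45 and Gins1 keep 1 sign on each array, whereas the probes of Orc4 and Tk1 straddle 0 on both and those of Pola2 on the array labelled Atmp38dKO.

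The genes that protect, clamp and join DNA were within 1.5-fold of WT at their main probes. Pcna, the sliding clamp, read 10928 in WT, 12200 in AtmsKO and 12470 in Atmp38dKO, differences of 0.24 and -0.02. The 6 genes of the clamp and its loader (Pcna and Rfc1 to Rfc5) had medians of 0.11 and 0.17 against WT. In each comparison 4 of 6 were higher, where 51.0% and 52.2% of all genes were. Other probes on the same RefSeq mRNAs went further. A second Rfc3 probe gave 158 in WT, 71.9 in AtmsKO (-1.06) and 149 in Atmp38dKO, where the main probe was at -0.00 for AtmsKO, and another Rfc4 probe was 0.60 above WT on both mutant arrays. Rpa1, Rpa2 and Rpa3, which coat single-stranded DNA, were higher on both mutant arrays, between 0.11 and 0.43. Fen1, the flap nuclease, and Lig1, the ligase that joins Okazaki fragments, differed from WT by -0.15 to 0.33.

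Nucleotide supply was the role with the highest median on the array labelled Atmp38dKO, at 0.39 against WT, and it was 0.13 on the AtmsKO array. Of its 5 genes 3 were higher than WT on the array labelled Atmp38dKO, where 52.2% of all genes were. The 3 were Dut, Tk1 and Tyms, which provide thymidine nucleotides and keep uracil out of DNA. The other 2, Rrm1 and Rrm2, are the subunits of ribonucleotide reductase and were lower than WT on both mutant arrays, by up to 0.29 and 0.35 on the log2 scale. No gene of this role passed 1.5-fold at its main probe. Tk1, thymidine kinase, gave 199, 206 and 302, differences of 0.13 and 0.39. Its 5 probes ran from -0.94 to 0.67 for AtmsKO against WT and from -0.52 to 0.58 for Atmp38dKO against WT. For AtmsKO 3 of the 5 Tk1 probes were higher than WT and 2 lower. For Atmp38dKO 4 were higher and 1 lower, and that 1 was the dimmest (22.8 on WT, 18.4 on Atmp38dKO). The main Tk1 reading thus stood between opposed readings of other probes, 3 of which are annotated to Ensembl transcripts.

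Of the chromatin genes, Chaf1a and Chaf1b encode subunits of the histone chaperone CAF-1, and Uhrf1 brings maintenance methylation to new DNA. At their main probes all 3 were higher on the AtmsKO array than on WT, from 0.27 to 0.64, where 51.0% of all genes were. A second Uhrf1 probe, on a RefSeq mRNA and across an intron, gave 1103, 891 and 1091. It was at -0.23 against WT on both mutant arrays, opposed to the main Uhrf1 probe at 0.27 and 0.42. Chaf1a gave 43.9, 64.6 and 60.1, above WT on both mutant arrays by 0.64 and 0.24 (normexp 0.35 and 0.10). On the array labelled Atmp38dKO the median of the 3 was 0.24.

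Probes of the same gene disagreed among the members about as often as elsewhere. For AtmsKO against WT 27 of 45 other probes (60%) had the sign of the main probe, against 53.0% over all genes. For Atmp38dKO against WT it was 23 of 46 (50%) against 53.5%, and for Atmp38dKO against AtmsKO 24 of 44 (54.5%) against 54.4%. The median absolute gap between a member's main and other probes was 0.26, 0.28 and 0.42 in these comparisons, against 0.37, 0.39 and 0.37 over all genes.

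A wider set of 40 replication and S-phase genes outside the 48 was higher than WT on the AtmsKO array in 28 of 40 (median 0.24), where 51.0% of all genes were. The 1.5-fold limit was passed upwards by 10 and downwards by 1 of them, against 10.1% and 10.2% of all genes. On the array labelled Atmp38dKO 27 of 40 were higher (median 0.10), where 52.2% of all genes were. At least 1.5-fold higher were 4 and lower by that much 0, against 11.0% and 10.6% of all genes. Mcm8, an MCM-related helicase of recombination, gave 18.8 on WT and 65.2 on AtmsKO (1.87). Ticrr, which helps to activate origins, gave 37.4 and 89.1 (1.33), and 1 of its 2 other probes had the same sign. Recql4, a helicase needed for the start of replication, gave 45.5 on WT, 82.0 on AtmsKO (0.93) and 91.8 on the array labelled Atmp38dKO (0.80). Each of these 3 was above WT on the AtmsKO array. On the array labelled Atmp38dKO the nuclease and helicase Dna2 gave 92.2 against 41.2 on WT (0.95), and the histone acetyltransferase Hat1 gave 472 against 246 (0.73), a direction its other probe did not share.

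The 32 regulators of the G1 to S step were divided. On the AtmsKO array 14 were higher than on WT (median -0.01), where 51.0% of all genes were. The 1.5-fold limit was passed upwards by 1 and downwards by 3, against 10.1% and 10.2% of all genes. On the array labelled Atmp38dKO 19 were higher (median 0.07), where 52.2% of all genes were. There the limit was passed by 3 and 4, against 11.0% and 10.6%. Cdkn1a, which encodes the cyclin-dependent kinase inhibitor p21, gave 213 on WT, 94.7 on AtmsKO and 135 on the array labelled Atmp38dKO, and both mutant arrays were low, by -1.10 and -0.88. Its other measured probes had the same sign. E2f3, an activating E2F factor, gave 80.9, 128 and 164, above WT on both mutant arrays by 0.74 and 0.81. Skp2, a ubiquitin ligase subunit acting on p27, gave 98.8 on WT and 40.9 on AtmsKO (-1.19), and its other probe had the opposite sign. E2f5 gave 23.2 on WT and 15.0 on the array labelled Atmp38dKO (-0.85).

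The 24 mitosis genes were higher than WT in 19 of 24 on the AtmsKO array (median 0.29), where 51.0% of all genes were, and in 13 of 24 on the array labelled Atmp38dKO (median 0.06), where 52.2% were. Between the mutant arrays 2 of 24 were higher and 22 lower on the array labelled Atmp38dKO (median -0.24), where 49.5% of all genes were higher and the replication genes had a median of 0.04. Past 1.5-fold, AtmsKO against WT had 2 of the 24 higher and 0 lower, against 10.1% and 10.2% of all genes. Atmp38dKO against WT had 2 and 1, against 11.0% and 10.6%, and Atmp38dKO against AtmsKO had 0 and 2, against 10.1% and 8.82%. Dlgap5, a spindle protein, gave 95.5 on WT, 275 on AtmsKO (1.60) and 187 on the array labelled Atmp38dKO (0.75), where its other probe had the opposite sign. Nuf2 of the kinetochore gave 212 on WT and 306 on AtmsKO (0.60), and Ube2c, which acts with the anaphase-promoting complex, gave 521 and 702 (0.51). On the array labelled Atmp38dKO the kinase Aurka gave 251 against 332 on WT (-0.62) and the kinase Ttk 109 against 61.6 (0.61), with 1 of 2 other Ttk probes in the same direction.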

How the data were processed

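LT-HSC RNA from 3 genotypes was measured on 1 Agilent 1-colour array each. The arrays shared a slide and a scan, so no batch could be split off. The authors' files hold background-subtracted intensity per spot (processed signal) from Agilent Feature Extraction 11.5.1.1, and a deposited table of normalised log2 values made by a contractor, which was used as an alternative only. Those values lay within 0.02 of the log2 processed signal minus the 75th percentile for at least 99.7% of probes on each array. Probe positions are in mm9, per the file headers.

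Control and outlier spots were left out, and repeated spots of a probe were averaged. Values were divided by the array's 75th percentile, raised to the lowest value well above background where they were not above it, and taken as log2. A gene was the probe with the highest mean signal, and a gene entered a comparison where it was well above background on at least 1 of its 2 arrays. Files give 1 array per genotype, so no test was run. Arrays have no read depth, and precision is limited by their number. Python 3.11.15, pandas 2.3.3 and numpy 2.4.6 were used, also for the quantile alternative. The normexp alternative used limma 3.58.1 in R 4.3.3, and the scaling was tested on simulated data.

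The members, the other gene lists and the tests were chosen with earlier results of these data known. Values on each array are given for Mcm2 to Mcm7, Pcna, members at least 1.5-fold different between any arrays, members whose probes were opposed by more than 1.5-fold on both sides, Atm and Mapk14, and, for each other list, the 3 genes measured on all arrays with the largest difference from WT. Other marker lists, as summed signal in units of the 75th percentile on the WT, AtmsKO and Atmp38dKO arrays, gave 380, 392 and 343 for granulocyte and monocyte genes, 37.8, 34.5 and 36.9 for erythroid genes, 16.3, 30.5 and 19.1 for megakaryocyte genes, 6.38, 6.09 and 6.23 for B cell genes, and 6.68, 6.86 and 7.81 for T cell genes. The LT-HSC genes gave 78.8, 75.8 and 67.6. Single bright genes carried some of these sums, so sums of different lists cannot be compared as amounts of cells. Itgam made up most of the granulocyte and monocyte sum on every array. Pf4 accounted for the higher megakaryocyte sum on the AtmsKO array, where the median difference of that list from WT was 0.01.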

Additional observations from a re-analysis of the deposited data

How the results depend on the processing

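No paired analysis was possible because each genotype holds 1 array, and for the same reason no array could be left out. The alternatives were median centring, quantile normalisation, normexp background, the deposited log2 values, no floor or filter, detection on both arrays, a mean signal of at least 100, the second probe, the mean over a gene's probes, the mean over genes and, chosen after seeing the data, the brightest probe on a RefSeq mRNA. Of 150 counts 118 stayed within 1.5 times the reported one and 32 did not, and 32 of 33 medians kept their sign. The exception was the mean over genes for Atmp38dKO against AtmsKO (-0.042). Counts below are in the order AtmsKO against WT, Atmp38dKO against WT and Atmp38dKO against AtmsKO. With the second probe (29, 30 and 30 genes), 1, 6 and 6 genes were at least 1.5-fold higher, 3 and 2 at least 1.5-fold lower in the comparisons with WT, 0, 2 and 2 at least 2-fold higher, 0 at least 2-fold lower in the last 2 comparisons, and 18 higher for AtmsKO against WT. With normexp, 1 and 0 were at least 1.5-fold higher, 3 and 3 lower, and 0 and 0 at least 2-fold lower in the comparisons with WT. With a mean signal of at least 100, 2 were at least 1.5-fold higher for AtmsKO, 3 and 3 lower, and 0 and 0 at least 2-fold lower against WT. With the mean over probes, 2 were at least 1.5-fold higher for AtmsKO against WT and 2 for Atmp38dKO against AtmsKO, 3 lower for Atmp38dKO against WT, 0 at least 2-fold higher for AtmsKO against WT, and 0, 0 and 0 at least 2-fold lower. Median centring gave 2 at least 1.5-fold lower for Atmp38dKO against AtmsKO. The RefSeq probe left 0 at least 2-fold higher for AtmsKO against WT and 0 lower for Atmp38dKO against AtmsKO, since Orc4 was then read from another probe. The second probe and the signal limit use fewer genes; for the rest the cause was not tested. No scaling turned the sign of a member in a comparison where it passed 1.5-fold, and dim probes limit the precision of Pola2, Orc5 and Chaf1a.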
